A study of Mus musculus with 107 samples.

Results

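The eggs described here are mos mutant eggs of the group named M3, set against wildtype eggs that had been activated with strontium chloride. Both groups belong to the second sequencing batch of a series of 107 single mouse eggs. The M3 group of that batch held 18 eggs. Of these, 1 had fewer than 10000 counts in all (egg 11), and egg 8, which carries transcripts of the newly active embryonic genome, was set apart and is described on its own. The comparison therefore used 16 M3 eggs and all 17 activated eggs, 33 of the 107 eggs. Leaving out egg 8 for its zygotic transcripts lowers the zygotic level of the M3 group by construction. The folds of the single lower genes described below are therefore given with and without it.

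The M3 eggs came from mos -/- C57BL/6J females, and the activated eggs from wildtype C57BL/6J females. All females were 2 to 3 months old and received 5 IU of pregnant mare serum gonadotropin 48 h before oocytes were taken. Oocytes of both groups were isolated at the germinal vesicle stage in 2.5 µM milrinone, matured in culture without it, and collected 38 to 40 h after the germinal vesicle broke down. The activated eggs alone spent 2 h in 10 mM strontium chloride in calcium-free medium, beginning 15 to 16 h after that breakdown. The names M1, M2 and M3 are not explained by the labels, and a deposited growth number, also unexplained, was 3 for the M3 eggs and 1 or 2 for the activated eggs (8 and 9 eggs). Untreated wildtype eggs of the same batch (24 eggs) are given beside both groups, mostly as a level.

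MOS is a kinase made by the maturing oocyte that switches on the MAP kinase pathway and so holds the egg in metaphase II until fertilisation. Mouse eggs that lack it often leave this arrest without sperm. Strontium makes wildtype eggs leave it too, by setting off calcium oscillations like those that follow sperm entry. After exit from meiosis the egg degrades stored maternal messages and then begins to transcribe the embryonic genome, in a first wave that includes the homeodomain factor Dux, the Zscan4 and Zfp352 zinc finger genes and the Usp17l deubiquitinases. The comparison asks how far the messages of mutant eggs and of activated eggs differ.

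M3 and activated libraries were comparable in depth, and wildtype libraries were shallower. Totals ran from 338180 to 1312886 counts in M3 eggs (median 773057.5) and from 179003 to 1132319 in activated eggs (median 796582). Wildtype eggs held 66826 to 630687 counts (median 207420). With every egg thinned to 60000 counts, 6605 ± 208 genes were detected per M3 egg (SD, 16 eggs), 6719 ± 242 per activated egg (SD, 17 eggs) and 5195 ± 610 per wildtype egg (SD, 24 eggs). The 12 oocyte markers examined, among them Zp1, Zp2, Gdf9 and Bmp15, all passed the expression filter, and summed to 4633 to 12340 counts per 1000000 (CPM) in M3 eggs and 4110 to 8314 CPM in activated eggs. Of 20 granulosa and cumulus markers, 5 had no count in M3 eggs and 8 had none in activated eggs. Their summed level was 87.7 to 357 CPM in M3 eggs and 44.7 to 156 CPM in activated eggs. Serpine2 gave most of it, with 2238 counts over the M3 eggs and 950 over the activated eggs, while Fshr had 0 in M3 eggs and 6 in activated eggs, and Inhbb had none in either group. Cyp19a1 followed with 511 and 225 counts, while Krt18 had 1 in M3 eggs and 42 in activated eggs. Of the 10 markers that passed the filter, 3 were higher and 3 lower in both M3 plates. The summed level thus moved with the groups through few genes, and its part in the differences below was not tested.

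Each library is 1 egg. The labels do not say which animal or culture an egg came from, and counts were therefore summed by group and plate before testing. M3 eggs gave 2 sums (5 eggs on plate 1, 11 on plate 2) and activated eggs 1 (plate 4). The p-values therefore measure only the spread between plate sums, which may be technical. The lone activated sum is assumed to vary like the others, and plate 4 and activation cannot be told apart. Values per egg are descriptions in CPM of that egg's total. They are relative to the total and say nothing of the amount per egg.

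M3 eggs differed from activated eggs in 2 ways. With egg 8 left out, they lacked, or nearly lacked, transcripts of the first embryonic wave that activated eggs held, and they held higher levels of a set of well expressed messages that in most cases stood close to the level of untreated wildtype eggs. Of 12015 genes tested, 53 differed at an adjusted p under 0.05 with edgeR's quasi-likelihood test (0.441%). Of these, 22 were higher in M3 (0.183%) and 31 lower (0.258%), and 1110 genes had an unadjusted p under 0.05. The log2 fold was 0.01 for the median gene. Calls are those of this edgeR fit unless another tool is named. In simulated counts with the same design, the test found 35 of 100 genes changed 4-fold and 4 of 100 changed 2-fold, so most changes of that size would go uncalled. The changed genes were drawn from those with a mean of at least 4 log2 CPM. All 31 lower genes lie below that level (at most 3.835), where recovery was not tried. Without the filter on low counts 201 genes were called, and with DESeq2 185. The share of calls that were higher in M3 was 41.5%, against 73.0% with DESeq2, 26.2% with RLE scaling and 23.8% with upper quartile scaling, which moved the median gene to -0.14. There were 23 calls without the plate 1 sum of M3 and 17 without its plate 2 sum, 33 without M3 egg 20, 32, 80 and 81 without activated egg 6, 4 or 12, and none with egg 8 kept (788 at an unadjusted p under 0.05).

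**Figure D1:**
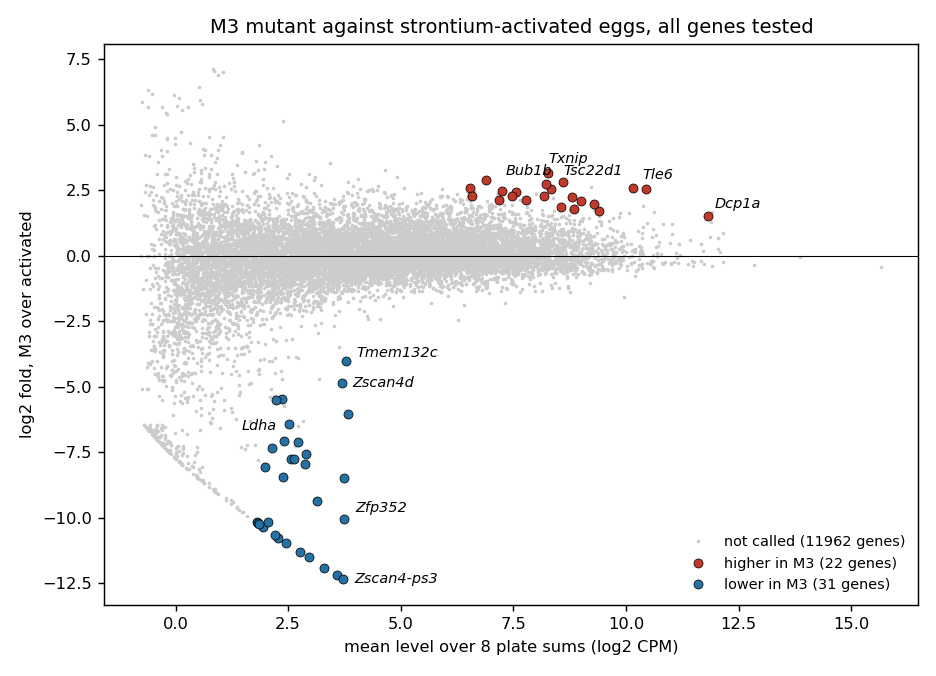
Each dot is 1 of the 12015 genes tested; the x axis gives its mean level over 8 plate sums (log2 CPM) and the y axis the fitted log2 fold of M3 over activated eggs. The 22 genes higher in M3 (red) all lie above 6.5 log2 CPM and the 31 lower genes (blue) all below 4, where the diagonal edge is formed by genes with no count in M3.

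The 31 lower genes include many known from the early embryo. Members of 6 families made up 20 of them: 5 Pramel genes (leucine-rich repeat proteins of the Prame family), 5 Zscan4 loci, 3 Usp17l genes, 3 Eif1ad genes, 2 Alyreffm genes (related to the mRNA export factor Alyref) and 2 Eif4a3l genes (related to the exon junction helicase Eif4a3). These families were picked out after their values were seen. All 13 numbered Eif1ad copies tested, all 8 Zscan4 loci, all 5 Usp17l genes, both Eif4a3l genes and 2 of 3 Alyreffm genes were at least 2-fold lower in both M3 plates, against 9.16% of all genes tested. The Pramel family was mixed, with 12 of 30 members at least 2-fold lower and 3 at least 2-fold higher in both plates. These family counts leave out egg 8 of plate 1, set apart for such transcripts, and were not made with it kept. In that egg Usp17la and Usp17lb stood at 1520 and 1551 CPM, against 67.3 and 37.7 CPM in the activated sum. Some copies, among them Eif1ad7, Eif1ad8 and Zscan4f, had counts only in the activated sum of the 8 sums fitted. They passed the expression filter through it alone and could only be lower in M3. The excess of the family counts over 9.16% is thus partly set by leaving out egg 8 and by the filter. Of the 31 genes, 13 had no count in any M3 egg, 11 had 1 to 3 counts over all 16 eggs and 7 had more. In untreated wildtype eggs 19 of the 31 had no count, and no gene had more than 58. The size of these differences rests on leaving out egg 8. With it kept in the M3 sum, the 31 log2 folds ran from -10.37 to 0.85 with a median of -2.69, 29 stayed below 0, and none was called with edgeR. Usp17lb and Eif1ad8 then stood above 0, at 0.85 and 0.06. Since the egg was left out for these transcripts, the folds of single genes below are followed by their value with it.

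The members of these families are related copies. How the counting divided reads between copies is not known, and the values of single copies are uncertain. Promoters are printed here for Zfp352, whose upstream window is itself repetitive, for 2 Zscan4 copies and for 1 Usp17l gene, from 250 bases before to 50 bases after the RefSeq start (GRCm38.p6), 5′ to 3′ on the gene's strand. Capitals mark TAATCC, the core bound by several homeodomain factors, in Zfp352, and TATAAA, the TATA box, in the others. Zfp352 lies at chr4:90218570-90218869 on the plus strand, Zscan4c at chr7:11005495-11005794 on the plus strand, Zscan4d at chr7:11166099-11166398 on the minus strand and Usp17lc at chr7:103416446-103416745 on the plus strand.
Zfp352: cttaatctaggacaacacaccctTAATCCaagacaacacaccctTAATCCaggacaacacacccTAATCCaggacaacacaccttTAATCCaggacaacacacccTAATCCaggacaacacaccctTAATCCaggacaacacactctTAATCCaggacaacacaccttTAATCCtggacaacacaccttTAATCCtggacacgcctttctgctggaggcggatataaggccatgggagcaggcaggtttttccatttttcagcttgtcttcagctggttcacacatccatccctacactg
Zscan4c: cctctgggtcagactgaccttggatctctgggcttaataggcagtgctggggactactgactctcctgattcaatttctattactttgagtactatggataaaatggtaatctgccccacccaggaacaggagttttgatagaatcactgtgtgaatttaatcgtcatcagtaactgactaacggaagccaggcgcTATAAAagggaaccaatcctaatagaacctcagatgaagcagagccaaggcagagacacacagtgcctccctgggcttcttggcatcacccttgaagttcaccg
Zscan4d: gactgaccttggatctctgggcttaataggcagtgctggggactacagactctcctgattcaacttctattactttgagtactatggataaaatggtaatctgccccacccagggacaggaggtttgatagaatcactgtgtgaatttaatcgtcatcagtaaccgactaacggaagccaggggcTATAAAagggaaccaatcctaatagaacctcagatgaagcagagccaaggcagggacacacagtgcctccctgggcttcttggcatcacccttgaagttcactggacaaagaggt
Usp17lc: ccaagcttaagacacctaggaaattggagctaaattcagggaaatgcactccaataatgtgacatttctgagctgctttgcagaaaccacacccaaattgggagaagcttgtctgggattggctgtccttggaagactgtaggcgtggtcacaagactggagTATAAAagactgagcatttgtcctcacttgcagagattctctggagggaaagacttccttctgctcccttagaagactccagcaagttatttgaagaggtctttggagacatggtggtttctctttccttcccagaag

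Zscan4c and Zscan4d were identical at 281 of 289 aligned promoter bases (97.2%), Zscan4c and Zscan4f at 99.3%, and the Usp17la, Usp17lb and Usp17lc promoters at 90.2% to 95.3%. The Zfp352 window holds 9 copies of TAATCC on the gene's strand, and it was the only 1 of 32851 promoter windows in the table with as many. Counting either strand, TAATCC occurred in the promoters of 6 of the 21 lower genes found in the table (Chit1, Eif4a3l1, Ldha, Pramel17, Prps1 and Zfp352), in 2 of the 16 higher genes found, and in 8.14% of all genes there. TATAAA occurred in 7 of the 21 lower genes (Pramel20, Pramel31, Usp17lb, Usp17lc, Zscan4c, Zscan4d and Zscan4f), in 1 of the 16 higher genes (Tsc22d1) and in 15.7% of all genes. The 7 genes include copies of the same sequence, and a match is only a match of letters.

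Duxf3, a copy of the gene for Dux, which switches on the first embryonic transcripts, had 0 CPM in the lowest M3 egg, 0 in the median and 1.84 in the highest, against 11.2, 38.0 and 80.8 CPM in activated eggs. Each of the 16 M3 eggs lay below every activated egg, a separation that held for 6 of the 12015 genes in this direction (0.0499%). It rests on leaving out egg 8, set apart for such transcripts, which held 210 CPM, above every activated egg. The M3 sum held 2 counts and the activated sum 554, a ratio of 258 with a 95% interval of 71.1 to 2136 that covers counting error only (edgeR adjusted p = 0.0163). With egg 8 kept the log2 fold was -2.14 (edgeR adjusted p = 0.979), against -7.77 without it.

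Zfp352, a zinc finger gene on chromosome 4 (90218820 to 90225702, plus strand, GRCm38) transcribed in early embryos, had a count in 1 of 16 M3 eggs and in all 17 activated eggs. Its level was 0, 0 and 1.69 CPM in the lowest, median and highest M3 egg, against 1.24, 35.6 and 460 CPM in activated eggs. With egg 8 left out, the 2 groups overlapped only through that single M3 egg. Egg 8 held 347 CPM, within the activated range. The sums held 1 and 1448 counts, a ratio of 1349 with a counting interval of 242 to 53310 (edgeR adjusted p = 0.00372). With egg 8 kept the log2 fold was -2.82 (edgeR adjusted p = 0.998), against -10.04 without it.

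Zscan4d, of the Zscan4 genes that mark the 2-cell stage, was the lower gene of its family with the most M3 counts. Its level was 0, 0 and 17.5 CPM in the lowest, median and highest M3 egg, against 2.70, 90.2 and 302 CPM in activated eggs, with counts in 7 of 16 M3 eggs and in all 17 activated eggs. The groups overlapped at the low end of the activated eggs, and the fitted log2 fold was -4.87 ± 0.84 (SE, edgeR adjusted p = 0.0217). Zscan4c had 4 counts over the M3 eggs and 652 over the activated eggs, with a log2 fold of -7.13 ± 1.18 (SE, edgeR adjusted p = 0.0217). Kept egg 8 brought these folds to -1.77 for Zscan4d (edgeR adjusted p = 0.929) and -3.08 for Zscan4c (edgeR adjusted p = 0.770).

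Usp17lc, a deubiquitinase gene, had no count in any M3 egg and 2.88, 21.6 and 193 CPM in the lowest, median and highest activated egg. A count of 0 over the M3 eggs allows up to 3 counts, or 0.238 CPM of their sum, so the gene was at least 242-fold lower in the 16 M3 eggs (edgeR adjusted p = 0.00823), although DESeq2 did not call it (adjusted p = 0.232). Usp17la, with 1 count in the M3 sum and 909 in the activated sum, was 847 times lower, with a counting interval of 152 to 33480 (edgeR adjusted p = 0.00582). With egg 8 kept no such difference was seen: the log2 fold was -0.02 for Usp17la (edgeR adjusted p = 0.9995) and -0.64 for Usp17lc (edgeR adjusted p = 0.999). Pramel16 also had no M3 count and a count in all 17 activated eggs, between 2.48 and 244 CPM, which makes it at least 211-fold lower. Its log2 fold with egg 8 kept was -2.20 (edgeR adjusted p = 0.998).

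The other 11 lower genes, Duxf3 and Zfp352 among them, belong to none of those 6 families, and those named next were chosen after their values were seen. Prps1 makes phosphoribosyl pyrophosphate, a precursor of nucleotides. It stood at 0, 0 and 2.57 CPM in the lowest, median and highest M3 egg and at 6.87, 56.6 and 380 CPM in activated eggs. These eggs did not overlap, but egg 8, left out, held 341 CPM, within the activated range. The log2 fold of Prps1 was -8.50 ± 1.13 (SE, edgeR adjusted p = 0.00582). Ldha, the lactate dehydrogenase subunit of glycolytic tissues, had 5 counts in M3 eggs and 494 in activated eggs (log2 fold -6.44 ± 1.23, SE, edgeR adjusted p = 0.0374). Clp1, an RNA kinase of the complex that cuts the 3′ ends of pre-mRNA, had 2 counts in M3 eggs and 663 in activated eggs, and was the only one of 19 polyadenylation genes tested that was called lower (edgeR adjusted p = 0.0227). Ficd, which modifies the endoplasmic reticulum chaperone BiP, was present more often, with counts in 6 of 16 M3 eggs and 13 of 17 activated eggs and a log2 fold of -6.04 ± 0.90 (SE, edgeR adjusted p = 0.00823). The remaining 5 of these 11 were Slc16a6, Ripk4, Chit1 and Tmem132c, with log2 folds between -7.77 and -4.01, and Gm11232, which had no M3 count and was at least 97.2-fold lower. With egg 8 kept, the log2 fold was -2.69 for Prps1, -3.83 for Ldha, -4.73 for Clp1, -2.55 for Slc16a6 and -1.15 for Gm11232. It stayed within 1 log2 unit of the value without the egg for Ficd (-5.48), Ripk4 (-5.59), Chit1 (-5.58) and Tmem132c (-3.11).

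**Figure D2:**
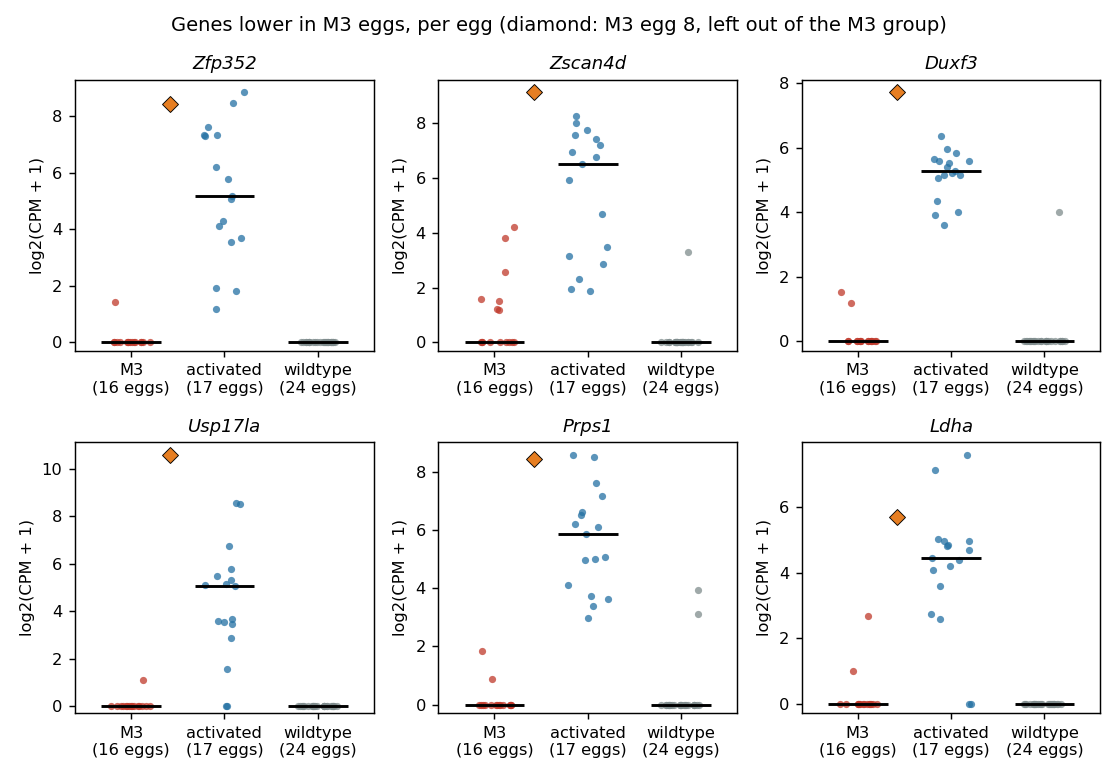
Levels of 6 lower genes as log2(CPM + 1), 1 dot per egg, with black bars at group medians; 16 M3 eggs, 17 activated eggs and 24 wildtype eggs of batch 2. The M3 and wildtype medians lie at 0 for all 6 genes, and the orange diamond of M3 egg 8 lies above the activated median for each gene shown.

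On the list of 29 zygotic genes tested, 8 were called lower in M3 with egg 8 left out and none with it kept, none was called higher, and 22 were at least 2-fold lower in both plates. The median log2 fold of the list was -7.00 as fitted, and -4.87 with its 9 members that had no M3 count held at the floor of 3 counts, against 0.01 over all genes. That 2-fold count and both medians leave out egg 8, set apart for its zygotic transcripts, and were not worked out with it kept. Members such as Zscan4f also passed the expression filter through the activated sum alone and could only be lower in M3. The members were not uniformly low. Klf17, a Krüppel-like zinc finger factor, stood at 913, 1431 and 1684 CPM in the lowest, median and highest M3 egg and at 895, 1260 and 2152 CPM in activated eggs (log2 fold 0.07 ± 0.29, SE). Pramel25 and Nr5a2, a nuclear receptor, gave log2 folds of 0.46 ± 0.52 and -0.18 ± 0.78 (SE).

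Egg by egg, the 31 lower genes separated the groups once egg 8 was left out. The 31 genes were called from these same eggs, and egg 8 was set apart for such transcripts, so this is no further evidence. Egg 8 had a count for 28 of the 31 genes and a summed level of 9602 CPM, above every activated egg. The M3 values that follow leave egg 8 out. In M3 eggs 1 to 7 of the 31 genes had a count, with a median of 3, against 17 to 31 with a median of 28 in activated eggs, and 0 to 5 with a median of 1 in wildtype eggs. Their summed level was 1.69, 11.6 and 43.1 CPM in the lowest, median and highest M3 egg, against 122, 761 and 6470 CPM in activated eggs. The activated eggs were thus far more varied than the M3 eggs without egg 8: 6 of the 17 stood under 250 CPM and 2 above 6000 CPM. With all eggs thinned to 60000 counts, M3 eggs had 0 to 2 of the 31 genes, wildtype eggs 0 to 2 and activated eggs 3 to 31. Activated eggs with growth numbers 1 and 2 had medians of 691 and 1748 CPM, with ranges of 122 to 6470 and 164 to 6353 CPM that overlapped almost wholly.

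The 22 genes higher in M3 were all well expressed, and each had a higher median over M3 eggs than over activated eggs. Their log2 folds ran from 1.53 to 3.14, and from 1.43 to 3.04 with egg 8 kept, when none was called with edgeR. Many of these calls lie near the threshold: 12 of the 22 were called in fewer than 10 of 16 other settings. In CPM, without the scaling between libraries used in the fit, the M3 sum was within 2-fold of the wildtype sum for 20 of the 22 genes. The activated sum was over 2-fold below the wildtype sum for 21. The median ratio to wildtype was 1.06 for M3 and 0.213 for activated eggs. Both ratios are likewise unscaled and share the wildtype sum. In the scaled fit, log2 folds of M3 over wildtype were -1.21 for Smc4, -1.06 for Dnajc3 and -1.05 for Smu1, over 2-fold below wildtype. They were 0.92 for Txnip and 2.25 for Tle6. With egg 8 left out, for 5 of the 22 every M3 egg lay above every activated egg, as was so for 0.141% of all genes tested. Of these, egg 8 lay within the activated range for Txnip, Prep and Igf2bp2, and above it for Tsc22d1 and Zdhhc24. Among activated eggs, 20 of the 22 genes had more CPM with growth number 1 than with 2. Summed over the 22, these eggs held 1930 to 7964 CPM with growth number 1 and 1754 to 3851 CPM with 2. M3 eggs had growth number 3, so growth number and group cannot be told apart.

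Txnip, an arrestin-domain protein that binds thioredoxin and restrains glucose uptake, had the highest fold. It stood at 359, 408 and 609 CPM in the lowest, median and highest M3 egg, against 20.4, 39.3 and 153 CPM in activated eggs, and at 55.7, 216 and 436 CPM in wildtype eggs. The 16 M3 eggs were tightly grouped above all activated eggs, and the log2 fold was 3.14 ± 0.47 (SE, edgeR adjusted p = 0.00823), with 3.13 on plate 1 and 3.15 on plate 2. Egg 8, left out, stood at 65.3 CPM, within the activated range. Txnip and Tle6 were the 2 genes whose M3 sum exceeded the wildtype sum by over 2-fold.

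Tle6, a protein of the subcortical maternal complex that embryos need for their first cleavages, had 174, 1551 and 3567 CPM in the lowest, median and highest M3 egg, against 92.1, 216 and 1107 CPM in activated eggs. Its level in untreated wildtype eggs was 0, 105 and 1427 CPM. In Tle6 alone of the 22 genes the activated sum, 294 CPM, stood level with the wildtype sum, 293 CPM, while the M3 sum held 1621 CPM. The log2 fold of M3 over activated was 2.59 ± 0.38 (SE, edgeR adjusted p = 0.00823), and that of M3 over wildtype was 2.25 and missed the threshold (edgeR adjusted p = 0.0712). It was the only called gene of 30 maternal effect genes tested, whose median log2 fold was 0.45. Nlrp5, of the same complex, had 539, 1902 and 4759 CPM in the lowest, median and highest M3 egg and 427, 874 and 2295 CPM in activated eggs (log2 fold 1.21 ± 0.34, SE, edgeR adjusted p = 0.195).

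Genes of chromosome segregation and replication were represented by 4 calls. Bub1b encodes BUBR1, a spindle checkpoint protein that also restrains the anaphase promoting complex. It stood at 54.8, 315.5 and 528 CPM in the lowest, median and highest M3 egg and at 15.1, 37.1 and 83.0 CPM in activated eggs, with an overlap at the lowest M3 eggs, and its log2 fold was 2.82 ± 0.48 (SE, edgeR adjusted p = 0.0217). It was the only edgeR call among 29 checkpoint and kinetochore genes, whose median was 0.25, and DESeq2 also called Ndc80. Ncapg and Smc4, both subunits of condensin, which compacts chromosomes, were the 2 calls among 22 cohesin and condensin genes, with median 0.17. Ncapg had 160, 302 and 534 CPM in the lowest, median and highest M3 egg, against 0, 55.4 and 173 CPM in activated eggs (log2 fold 2.53 ± 0.47, SE, edgeR adjusted p = 0.0333). Smc4 had 26.6, 140 and 633 CPM in M3 eggs, against 9.04, 38.5 and 107 CPM in activated eggs (log2 fold 2.29 ± 0.45, SE, edgeR adjusted p = 0.0409). Mcm4, a subunit of the replicative helicase, was the only call among 30 replication genes, with 276, 413 and 701 CPM in M3 eggs against 29.0, 110.5 and 382.5 CPM in activated eggs (log2 fold 1.87 ± 0.37, SE, edgeR adjusted p = 0.0389). Mcm4 was called in 7 of 16 other settings.

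Genes that handle stored messages were called singly. Dcp1a, an activator of mRNA decapping, had the most M3 counts of the higher genes. It stood at 2605, 4199 and 4883 CPM in the lowest, median and highest M3 egg and at 698, 1493 and 2830 CPM in activated eggs. The overlap was narrow, and the log2 fold was 1.53 ± 0.30 (SE, edgeR adjusted p = 0.0386). Dcp1a, called in 8 of 16 other settings, was the only edgeR call among 31 decay genes, with median 0.09, and DESeq2 also called Pabpn1l and Tob2. Igf2bp2, an RNA-binding protein that stabilises its targets, did not overlap between the groups once egg 8, at 159 CPM, was left out. It had 270, 454 and 766 CPM in M3 eggs and 73.6, 123.7 and 264 CPM in activated eggs (log2 fold 1.76 ± 0.36, SE, edgeR adjusted p = 0.0498). It lies just inside the threshold and was called in 10 of the 33 fits that each leave out 1 egg. Among 28 genes of stored mRNA translation it was the only edgeR call, with median -0.03, and DESeq2 also called Lsm14b and Zar1.

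Tsc22d1, a leucine zipper protein induced by TGF-beta, was called in at least 15 of 16 other settings, as were Txnip, Prep, Zfp352 and the pseudogene Zscan4-ps3. It stood at 840, 1375 and 2361 CPM in the lowest, median and highest M3 egg, against 126, 211 and 525 CPM in activated eggs, without overlap (log2 fold 2.54 ± 0.35, SE, edgeR adjusted p = 0.00695). Prep, a prolyl endopeptidase that cleaves small peptides, did not overlap either, with 232, 372 and 524 CPM in M3 eggs and 21.6, 48.6 and 171 CPM in activated eggs (log2 fold 2.73 ± 0.41, SE, edgeR adjusted p = 0.00823). Egg 8, left out, held 83.7 CPM of Prep, within the activated range. Zdhhc24, of a family of palmitoyltransferases, stood at 50.6, 126.8 and 244 CPM in M3 eggs and at 8.29, 17.4 and 31.7 CPM in activated eggs, again without overlap (log2 fold 2.87 ± 0.47, SE, edgeR adjusted p = 0.0189). Atp2b1, a plasma membrane pump that exports calcium, was the only call among 19 calcium handling genes, with 45.5, 154 and 275 CPM in M3 eggs and 20.7, 37.7 and 89.3 CPM in activated eggs (log2 fold 2.11 ± 0.41, SE, edgeR adjusted p = 0.0389), and was called in 8 of 16 other settings. The remaining higher genes were Nalf1, Dnttip2, Extl3, Pdcd2l, Taf1a, Dnajc3, Nup107, Nfrkb, Smu1 and Edrf1, with log2 folds between 1.72 and 2.58.

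**Figure D3:**
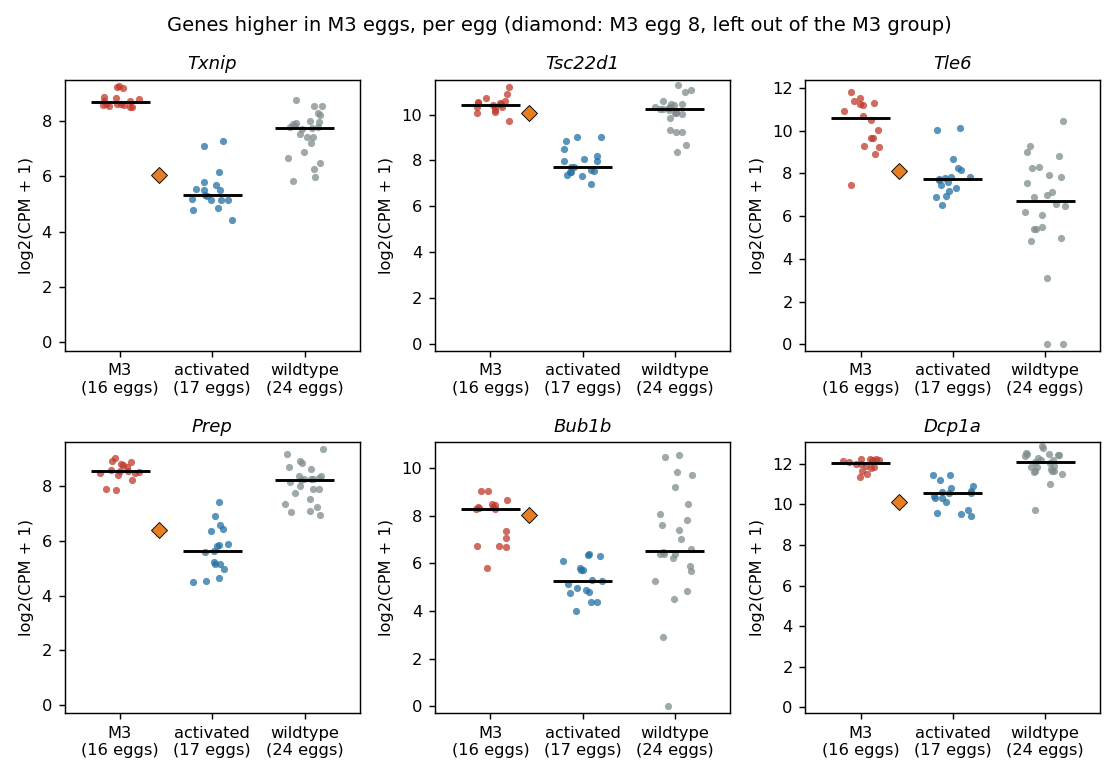
Levels of 6 higher genes as log2(CPM + 1), 1 dot per egg, with black bars at group medians; 16 M3 eggs, 17 activated eggs and 24 wildtype eggs of batch 2, and M3 egg 8 as a diamond. Activated eggs have the lowest median for Txnip, Tsc22d1, Prep, Bub1b and Dcp1a, while for Tle6 the median was 216 CPM in activated eggs and 105 CPM in wildtype eggs.

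Stored messages are often masked or extended through the cytoplasmic polyadenylation element, TTTTAT or TTTTAAT, near the AATAAA or ATTAAA signal at the 3′ end. In the last 100 bases of GENCODE M21 coding transcripts that hold such a signal within the last 40 bases, the element occurred in 9 of 18 higher genes, in 7 of 17 lower genes and in 23.8% of the genes tested, on the transcribed strand. Of the higher genes, only Bub1b, Ncapg and Txnip had the element before the signal with both within 30 bases. Their sites are shown with both in capitals, which run together in Bub1b.
Bub1b: TTTTATAATAAA
Ncapg: TTTTATtgtgcttctgcttcATTAAA
Txnip: TTTTAATgacaaaAATAAA

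Some genes separated all M3 from all activated eggs without passing the test, 12 above and 2 below, and those named here were chosen after their values were seen. Zp3, the sperm-binding protein of the zona pellucida, had 112, 203 and 496 CPM in the lowest, median and highest M3 egg and 17.3, 44.2 and 92.6 CPM in activated eggs (log2 fold 2.21 ± 0.47, SE, edgeR adjusted p = 0.0596). In wildtype eggs it ran from 0 to 3364 CPM. Natd1 stood at 934, 1198 and 1838 CPM in M3 eggs and at 272, 387 and 799 CPM in activated eggs (edgeR adjusted p = 0.0578). Carhsp1, a calcium-regulated RNA-binding protein, ran from 294 to 694 CPM in M3 eggs and from 78.2 to 218 CPM in activated eggs (edgeR adjusted p = 0.0578). Asb8, an ankyrin repeat protein, lay below in M3, at 26.1, 95.4 and 160 CPM against 162, 243 and 363 CPM in activated eggs (log2 fold -1.35 ± 0.40, SE, edgeR adjusted p = 0.213).

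The MOS pathway itself gave no call. Mos had 48 counts in the 16 M3 eggs and 72 in the 17 activated eggs, or 3.81 and 5.33 CPM of the sums, against 172 counts and 31.6 CPM in the wildtype eggs. It had a count in 13 M3 eggs, 10 activated eggs and 10 of 24 wildtype eggs. The log2 fold of M3 over activated was -0.38 ± 0.81 (SE, edgeR adjusted p = 0.977), so Mos counts do not tell these groups apart. The labels do not say which bases of Mos the mutation removes, and reads outside them check nothing. None of 17 genes of the MOS and MAP kinase list was called with edgeR or DESeq2, whose median log2 fold was -0.15.

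Among 19 genes that respond to ERK or feed back on it, 7 were at least 2-fold lower in both M3 plates and none was 2-fold higher. Of all genes tested, 9.16% were that much lower and 7.29% that much higher. Of the 19, 2 had no count in the M3 eggs, where a fold is poorly measured. A gene can pass the expression filter through the activated sum alone, and it is then bound to be lower in M3. How many of the 19 did so was not counted, so the shares over all genes are not a like background. None of the 19 was called with edgeR either. Dusp6, a phosphatase that switches ERK off, came closest. It had 0, 0 and 6.08 CPM in the lowest, median and highest M3 egg and 0, 22.96 and 89.4 CPM in activated eggs (log2 fold -4.71 ± 0.98, SE, edgeR adjusted p = 0.0545), and DESeq2 called it lower. Myc had 2 counts in the M3 sum and 56 in the activated sum, and Fosl1 had 0 in the M3 sum and 44 in the activated sum. Spry4, an inhibitor of this pathway, had the most counts of the list. It stood at 966, 1706 and 2466 CPM in M3 eggs, at 2223, 2574 and 4017 CPM in activated eggs and at 425, 667 and 1136 CPM in wildtype eggs, and its log2 fold was -0.45 ± 0.31 (SE, edgeR adjusted p = 0.777).

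With edgeR no gene was called in 17 of the other lists, while DESeq2 made 13 calls in 10 of them, counting Zp3 in each of the 2 lists that hold it. Their medians are set here beside 0.01 for all genes. Ribosomal protein genes had a median log2 fold of -0.41 over 76 members, of which 12 were at least 2-fold lower and 4 at least 2-fold higher in both plates, against 9.16% and 7.29% of all genes. Rplp0, of the ribosomal stalk, stood at 14.7, 34.6 and 86.3 CPM in the lowest, median and highest M3 egg and at 53.4, 149 and 450 CPM in activated eggs (log2 fold -2.44 ± 0.52, SE, edgeR adjusted p = 0.0578). Nuclear respiratory chain genes had a median of 0.12 over 83 members and proteasome genes 0.28 over 42. Anaphase promoting complex genes had 0.07 over 22, M phase and cytostatic factor genes 0.15 over 22, and spindle genes -0.02 over 27. Lipid metabolism genes had 0.53 over 23 members, with 5 at least 2-fold higher and 3 at least 2-fold lower in both plates. Oocyte markers had 0.74 over 12, with no member lower in both plates. Granulosa markers had 0.94 over 10, with 3 members higher and 3 lower in both plates. The stress and redox list, whose only edgeR call was Txnip and where DESeq2 also called Dnaja1, had a median of -0.18 over 27.

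**Figure D4:**
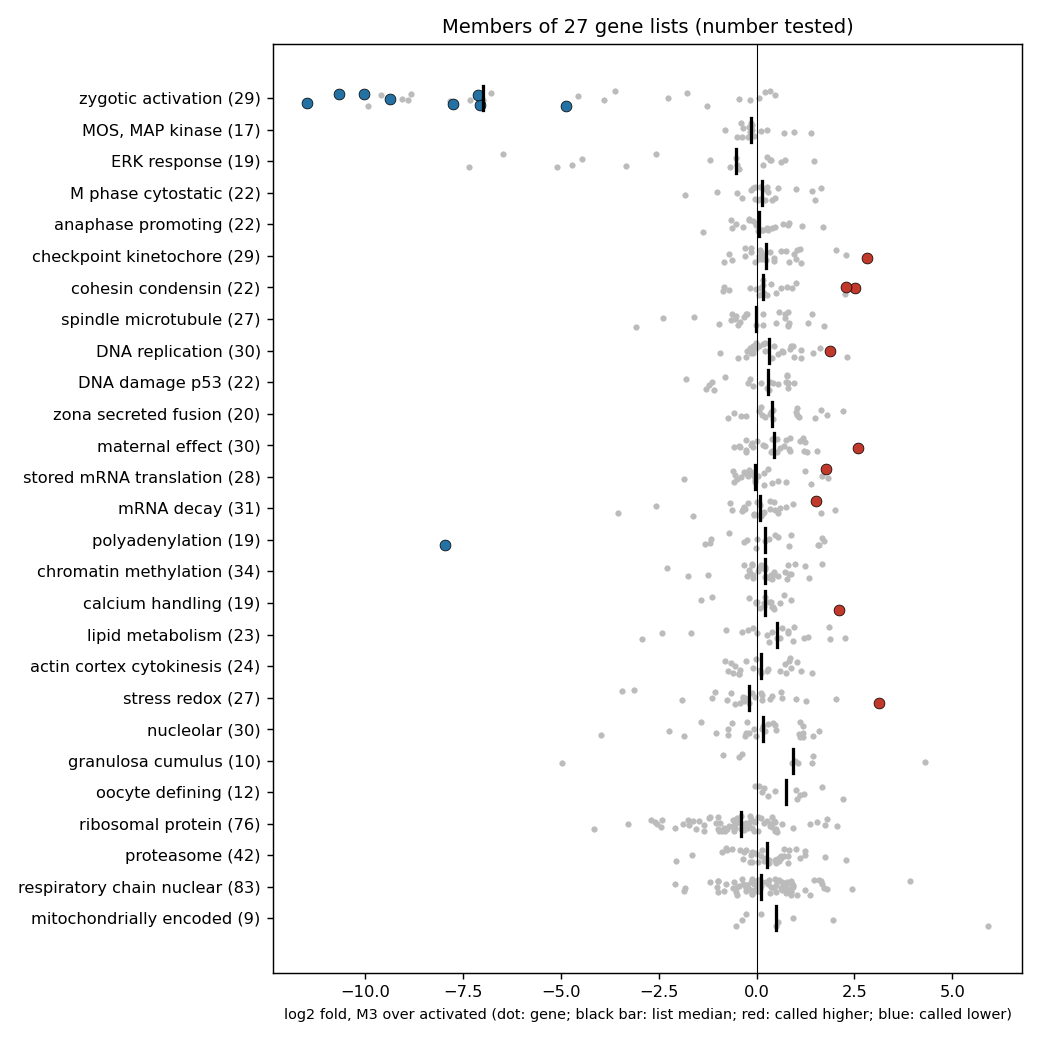
Fitted log2 fold of M3 over activated eggs for each tested member of 27 gene lists (dots), with the list median as a black bar, called higher genes in red and called lower genes in blue. Egg 8, set apart for its zygotic transcripts, is left out of these folds. Without it the zygotic list has 8 lower calls and a median of -7.00. The medians of the other lists lie between -0.53 and 0.94.

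Across the 17 activated eggs, those with more of the lower genes had less of the higher genes. Summed over the 22 higher genes, the lowest, median and highest M3 egg held 10750, 13179 and 16146 CPM, against 1754, 3069 and 7964 CPM in activated eggs, and 8027, 12704 and 16139 CPM in wildtype eggs. None of the 16 M3 eggs overlapped an activated egg, but the 22 genes were called from these same eggs, so this is no further evidence. Egg 8, left out, held 5975 CPM, within the activated range. Within activated eggs Spearman's rho between the 2 summed levels was -0.841 and Pearson's r of their log2 values -0.766 (17 eggs), and without the 2 eggs farthest from the median, eggs 6 and 14, these were -0.807 and -0.718. Both sums come from the same library, whose total showed rho of 0.049 with the lower genes and -0.027 with the higher genes. Within M3 eggs rho was -0.288 and r of the log2 values -0.577 (16 eggs). Activated eggs 4 and 12 were the nearest to the M3 eggs, with 7780 and 7964 CPM of the higher genes and 122 and 161 CPM of the lower ones.

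**Figure D5:**
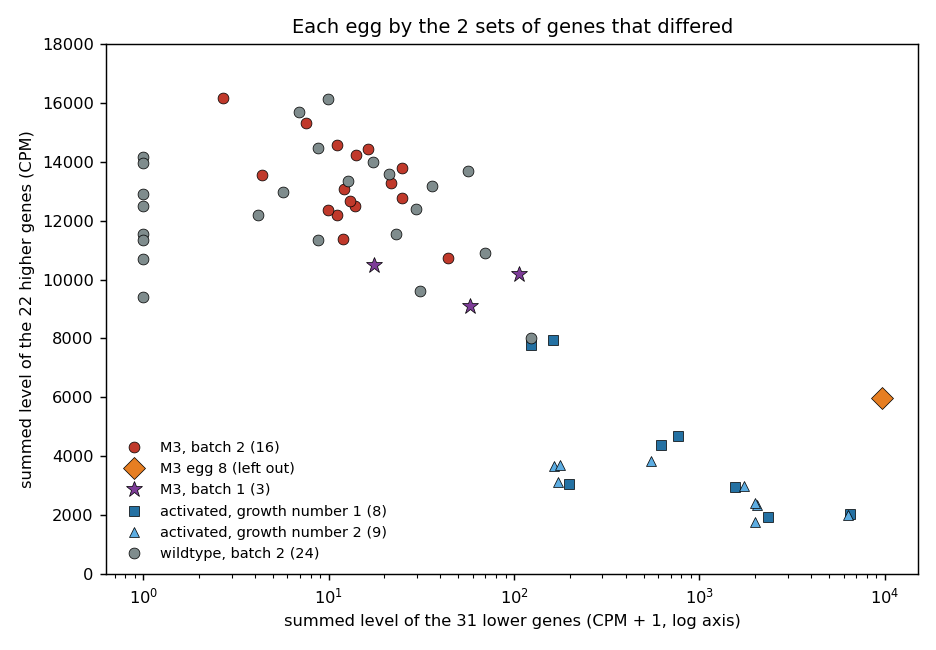
Each symbol is 1 egg; the x axis gives the summed level of the 31 lower genes (CPM + 1, log axis) and the y axis that of the 22 higher genes (CPM). M3 eggs (red) lie among the wildtype eggs (grey) at the upper left, activated eggs (blue) run from 122 to 6470 CPM at the lower right, and M3 egg 8 (diamond) lies at 9602 CPM.

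Egg 8 of M3 lay far from its group. It had 490016 counts and a count for 28 of the 31 lower genes, with a summed level of 9602 CPM, against at most 43.1 CPM in any other M3 egg and 6470 CPM in any activated egg. For 13 of the 31 genes it lay above all activated eggs, among them Usp17la at 1520 CPM, Zscan4d at 551 CPM and Duxf3 at 210 CPM. Of the higher genes it held 5975 CPM in all, within the activated range of 1754 to 7964 CPM. The other M3 eggs held 10750 CPM or more. Of the 22 genes, 14 lay within the range of the M3 eggs and 8 below it. Set against activated eggs, 13 lay within their range and 9 above it. Txnip stood at 65.3 CPM and Dcp1a at 1122 CPM. Mitochondrially encoded messages made up 26860 CPM of egg 8, against 154 to 4856 CPM in the other M3 eggs and 163 to 4078 CPM in activated eggs. Blood markers summed to 302 CPM there, against at most 30.9 CPM in the other M3 eggs and 54.5 CPM in activated eggs. With egg 8 kept in the M3 sum, edgeR called no gene (788 at an unadjusted p under 0.05), and 51 of the 53 genes kept their direction.

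M3 was also compared with the other mutant groups. In the 6 mutant sums of plates 1 and 2, with the plate as a block, none of 10554 genes differed between M3 and the mean of M1 and M2 (edgeR, lowest adjusted p = 0.6204), 269 had an unadjusted p under 0.05, and DESeq2 called 2. With 2 residual degrees of freedom this does not show that the groups are alike. Of the 53 genes, 27 passed the filter there and 4 had an unadjusted p under 0.05 (14.8%, against 2.55% of all genes there): Bub1b at a log2 fold of -0.87, Smc4 at -0.62, Dnajc3 at -0.58 and Extl3 at 0.45. None of these 4 passed the adjustment (edgeR adjusted p = 0.995 each). The 31 lower genes summed to medians of 11.6 CPM in M3 eggs, 17.3 CPM in M1 eggs and 21.99 CPM in M2 eggs (16 eggs each), and the 22 higher genes to 13179, 13956 and 13597 CPM. M1 and M2 were measured against the same activated eggs, so their folds are not independent of those of M3. Tle6, for example, gave log2 folds over activated eggs of 2.59 in M3, 2.14 in M1 and 2.38 in M2.

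The first batch held 3 further M3 eggs that did not enter the fit, sequenced to 20662571 counts in all. Their summed level of the 31 lower genes was 16.6, 56.7 and 105 CPM, below the lowest activated egg at 122 CPM. All 31 genes were below the activated sum in the sum of these eggs, the highest at 12.5 CPM, although at their depth 1 egg had a count for 29 of the 31. For the higher genes they held 9088, 10204 and 10510 CPM, above every activated egg, and 20 of the 22 genes were above the activated sum. No activated egg of that batch was analysed here, so batch and activation cannot be told apart here.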

How the data were processed

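Single mouse eggs were sequenced by Smart-seq2, which captures polyadenylated RNA and does not mark strand. The authors deposited whole-number counts per gene and egg, made with STAR and HTSeq on GRCm38/mm10, per the submitters' processing notes. Tool versions, the annotation and the strand setting of the counting were not stated there. Positions and transcript ends came from GENCODE M21, promoters from RefSeq.

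Eggs under 10000 counts were left out. Counts were summed by group and plate into 8 sums of batch 2 and fitted with edgeR 4.0.16 (R 4.3.3): TMM scaling, filterByExpr with a minimum count of 10, robust quasi-likelihood fit over all 5 groups, 3 residual degrees of freedom, Benjamini-Hochberg adjustment, threshold 0.05. M3 was also tested against the mean of M1 and M2 in 6 sums with a plate term (2 residual degrees of freedom). The test was tried on simulated counts. DESeq2 1.42.0, limma 3.58.1 and the settings listed at the end were alternatives. Intervals and floors cover counting error only.

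The members and gene lists were chosen with earlier results of these data known. Genes were named by a rule: among called genes with a mean of at least 4 log2 CPM, a fold of at least 2 and the same sign in both plates and in the egg medians, the 10 highest and 10 lowest folds without predicted genes and pseudogenes, up to 3 called members of each list or else the member with the most counts, and Mos. No lower gene reached that mean, so other lower genes, and other higher genes, were chosen after their values were seen.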

Additional observations from a re-analysis of the deposited data

Results flagged for a closer look

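M3 egg 8, which entered no test, held 9602 CPM of the 31 genes that were lower in M3 than in activated eggs. It drew attention because this signal lies in an egg outside the comparison and above the level of every egg in it: the 16 analysed M3 eggs held 1.69 to 43.1 CPM and the activated eggs 122 to 6470 CPM. Its mitochondrial and blood marker messages were also above those of the other M3 eggs. What sets this egg apart was not tested.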

How the results depend on the processing

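Counts of calls between M3 and activated eggs moved widely with the processing, beside 53 calls of which 41.5% were higher in M3. They were 185 (73.0% higher) with DESeq2, 203 (37.4%) with limma voom, 201 (49.3%) without the filter on low counts, 522 (56.5%) with the M3 and activated sums alone, and 332 (80.4%) with sums per group and batch and a batch term. They were 42 (26.2%) with RLE and 42 (23.8%) with upper quartile scaling, 13 (53.8%) with eggs thinned to 60000 counts, 26 (15.4%) testing for a fold of at least 2, and 0 with egg 8 kept (788 at an unadjusted p under 0.05). With activated eggs of growth number 1 alone they were 40 (22.5%), and of growth number 2 alone 111 (60.4%). Keeping near-empty eggs or dropping mitochondrially encoded genes left 53 calls. Without the plate 1 or the plate 2 sum of M3 there were 23 and 17 calls. Over these and the 33 fits that each leave out 1 egg, an alternative chosen after seeing the data, calls ran from 17 to 81 and the higher share from 33.3% to 56.5%. Single eggs that moved the count by over 1.5 times were M3 egg 20 (33 calls without it) and activated eggs 6 (32), 4 (80) and 12 (81), and 29 of the 53 genes were called in all 33 of those fits. The direction of all 53 held in each alternative other than egg 8 kept, where 51 held. Between M3 and the mean of M1 and M2, DESeq2 gave 2 calls and no filter 36, and the other alternatives 0. Uncalled list members near 0 changed sign. The log2 fold of mt-Co1 was 0.25 with egg 8 kept and 0.25 with batch sums, and ran from -1.01 to 0.15 over left-out sums and eggs. Laptm5 was 0.056 with growth number 1. Psmd2 was -0.18 with growth number 1, -0.17 thinned, -0.11 with batch sums and -0.030 with upper quartile scaling, and ran from -0.12 to 0.29 over left-out sums and eggs. Ccnb1 was 0.076 with growth number 2 and 0.11 with batch sums, and ran from -0.19 to 0.059. Bmp15 was -0.095 thinned, -0.011 without the filter and -0.081 with upper quartile scaling, and ran from -0.14 to 0.20. Npm1 ran from -0.13 to 0.48. The cause of these changes was not tested. No paired analysis was possible because each plate sum holds many eggs and carries no replicate number.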
